A study of Mus musculus with 32 samples.

Results

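Astrocyte genes are described here: 34 genes chosen by name as markers or functional genes of astrocytes, of which 33 had at least 1 probe set on the array and Slc6a11 had none. Their 65 probe sets are every probe set annotated with 1 of these symbols, out of 22626 probe sets tested (12393 genes with a symbol). Of the 33 genes, 13 were measured by 1 probe set and 20 by more, and 10 of the 65 probe sets carry the manufacturer's s or x suffix for probes shared by several transcripts. The study used 16 mice and took the medulla (the lowest part of the brainstem) and the midbrain from each, which gave 32 Affymetrix arrays. The mice were mutants deficient in Cckbr, the cholecystokinin B receptor (written KO here), or control mice, and each had a chronic constriction injury (CCI, a nerve ligation used as a model of neuropathic pain) or a sham operation. The 8 groups were control sham, control CCI, KO sham and KO CCI in each region, with 4 arrays per group. Strain, age, the interval after the operation and the design of the mutant allele are not given in the sources used here. All samples were whole pieces of tissue, so fewer astrocytes and less RNA per astrocyte cannot be told apart.

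Astrocytes take up glutamate released at synapses, buffer potassium and water, make lactate and glutamine for neurons, and are joined into networks by gap junctions. They are not uniform along the brain: white matter and grey matter hold fibrous and protoplasmic forms, and their gene programmes differ between regions. After injury to nervous tissue they become reactive, a state in which the intermediate filament genes Gfap and Vim are the classical markers.

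Array medians lay between 91.0 and 99.9 intensity units, the correlation between arrays within a group was 0.962 to 0.989 across probe sets (Pearson), and no array repeated another. Cckbr read 122 to 200.2 in control arrays and -1.49 to 24.1 in KO arrays, so every array matched its labelled genotype. Region labels matched too: Slc6a3, a dopamine neuron gene, read 480.0 to 762 in midbrain and -11.2 to 16.4 in medulla, and the hindbrain gene Hoxa5 read 261 to 899.8 in medulla and 3.22 to 30.2 in midbrain. The array KO sham midbrain 2 stood apart, with a 3' to 5' log2 ratio of Actb of 1.60 against at most 0.775 elsewhere. KO sham medulla 3 stood apart as well, with 4.58% of its values at or below 0 against 1.71% to 3.17% elsewhere, and with 538 probe sets more than 0.5 on the log2 scale below and 434 above every other medulla array. The sample descriptions carry 3 array codes, here called the lower code, the higher code and a further one found only on control sham 1. The lower code covered most arrays of replicates 1 and 2 and the higher code those of replicates 3 and 4, so for genes that passed between regions the brightest probe set is also given within the lower and the higher code. Within the lower code only control sham 2 stands for control sham in each region, so values given there rest on it for that group.

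The region was the factor with which the astrocyte genes differed. In midbrain against medulla, 29 of the 65 probe sets (44.6%) passed an adjusted p under 0.05 (limma with Benjamini-Hochberg adjustment over all probe sets), 14 of them higher and 15 lower in midbrain. Over all probe sets 21.5% passed, 10.5% higher and 11% lower, and among the 2099 probe sets at or above the median level of the astrocyte probe sets 36.2% passed. The astrocyte probe sets above that median level passed at 15 of 33 (45.5%). The median log2 difference was -0.038 for the astrocyte probe sets and 0.0054 for all.

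By the brightest probe set of each gene, 16 of 33 genes passed, against 24.3% of all 12393 genes counted the same way. Among probe sets at least as bright as the dimmest of these 33, 31.5% passed. Gfap, S100b, Slc7a10, Cd44, Slc1a2, Aqp4, Fgfr3, Mt1, Gjb6 and Aldoc were lower in midbrain, and Slc1a3, Id4, Fabp7, Entpd2, Apoe and Ndrg2 were higher. Dio2, Clu and Sparc passed by another probe set only, which made 19 genes by any probe set. No share of all genes was counted in that way. For 30 of the 33 genes the difference by the brightest probe set lay within 0.5 on the log2 scale. Differences are on the scale of log2(intensity + 16) and understate changes of dim probe sets.

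**Figure D1:**
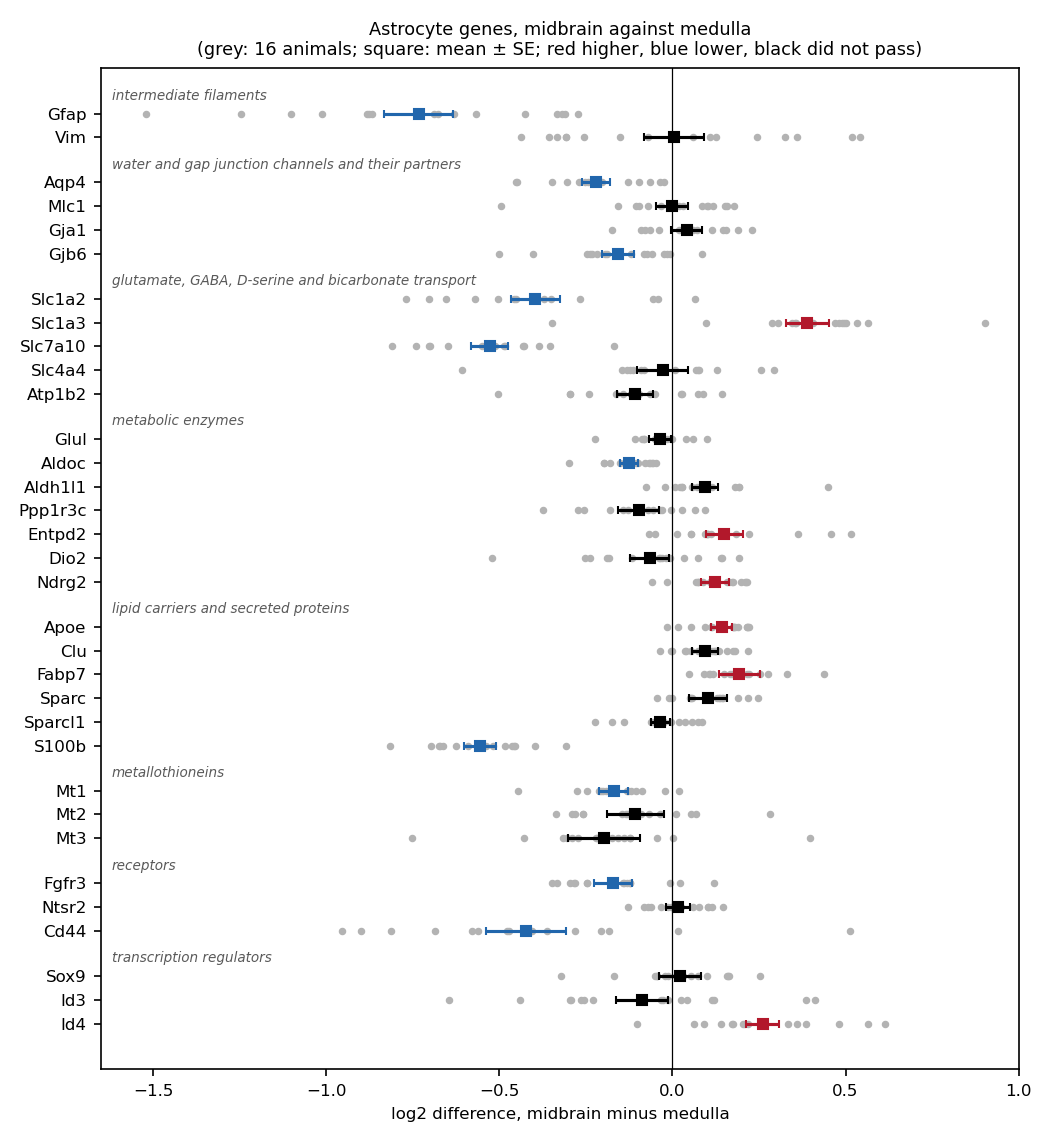
Log2 difference, midbrain minus medulla (horizontal axis), for the brightest probe set of each of 33 astrocyte genes, grouped by role. Grey dots are the 16 animals and squares the fitted mean with its SE, blue where lower and red where higher in midbrain at an adjusted p under 0.05, black where the gene did not pass. Gfap, S100b and Slc7a10 lie farthest to the left and Slc1a3 farthest to the right.

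Of the intermediate filaments, Gfap was lower in midbrain. Gfap, the main filament protein of fibrous astrocytes, read 752 to 1838 in the 16 medulla arrays (median 991) and 469 to 766 in the 16 midbrain arrays (median 622), with means of 1062 ± 283 and 619 ± 79.4 (SD, n = 16). It was lower in midbrain in all 16 animals, 1.66-fold by the fit (log2 -0.73 ± 0.10 SE, adjusted p = 2.32e-06, limma), and its second probe set read -0.68. The highest midbrain value and the highest medulla value both belonged to control sham 1, and without its medulla array the difference was -0.67 (adjusted p = 5.56e-07). The difference was -0.83 within the lower and -0.62 within the higher array code, and between -0.88 and -0.61 in the 4 animal groups. Vim, the filament protein of immature and reactive astrocytes that vessels also express, had means of 846 ± 168 in medulla and 839.8 ± 129 in midbrain (SD, n = 16). It was higher in midbrain in 8 animals and lower in 8, with a difference of 0.0040 and a 95% interval of -0.17 to 0.18 (limma), and without KO sham medulla 3 Vim read 0.042 (adjusted p = 0.783).

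Among channels and their partners, Aqp4 and Gjb6 were lower in midbrain and Gja1 and Mlc1 did not pass. Aqp4, the water channel of astrocyte endfeet, read 1937 to 2735 in medulla (median 2187) and 1591 to 2042 in midbrain (median 1902), and it was lower in midbrain in all 16 animals (log2 -0.22 ± 0.040 SE, adjusted p = 0.000129, limma). Its ranges overlapped between regions, the difference within the array codes was -0.23 (adjusted p = 0.0504) and -0.20 (adjusted p = 0.0919), and its second probe set read -0.28 ± 0.12 with an adjusted p of 0.0937. Gjb6 (connexin 30) had means of 855 ± 60.4 in medulla and 769 ± 82.4 in midbrain (SD, n = 16) and was lower in 15 of 16 animals (-0.16 ± 0.046, adjusted p = 0.0131, limma). Within the codes Gjb6 read -0.19 and -0.12, past the threshold in neither. Gja1 (connexin 43), the other astrocyte gap junction gene, has 6 probe sets, which read between -0.090 and 0.041 with none past the threshold, and the 95% interval of the brightest was -0.051 to 0.13. Mlc1, a membrane protein of endfeet that works with the water and chloride balance of astrocytes, read -0.0015 (95% interval -0.096 to 0.093).

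Both glutamate transporter genes passed, in opposite directions. Slc1a3 (GLAST) read 452 to 908 in medulla (median 547) and 620.4 to 887 in midbrain (median 741), with means of 569 ± 110.5 and 745 ± 74.6 (SD, n = 16). It was 1.31-fold higher in midbrain (log2 0.39 ± 0.063 SE, adjusted p = 2.99e-05, limma) and higher in 15 of 16 animals. The exception was the animal of KO sham medulla 3, the array with the highest medulla value, 908, and without that array the difference was 0.43 (adjusted p = 3.09e-07). Its 3 probe sets gave 0.39 to 0.42 and all passed, and within the array codes the brightest read 0.40 and 0.38 (adjusted p = 0.0542 in the higher code). Slc1a2 (GLT-1), by its only probe set, read 98.2 to 167 in medulla (median 142) and 71.4 to 118 in midbrain (median 102). It was 1.32-fold lower in midbrain (-0.40 ± 0.070, adjusted p = 9.79e-05, limma), lower in 15 of 16 animals, and -0.31 (adjusted p = 0.0731) and -0.41 (adjusted p = 0.0166) within the lower and higher codes.

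Slc7a10 (Asc-1), which carries small neutral amino acids including glycine and D-serine, was the transporter gene with the smallest adjusted p. It read 406 to 637 in medulla (median 559) and 341 to 481 in midbrain (median 377), with means of 555 ± 59.1 and 379 ± 33.6 (SD, n = 16). Every animal was lower in midbrain, and only the highest midbrain values reached into the medulla range. The difference was 1.44-fold (-0.53 ± 0.054, adjusted p = 1.37e-08, limma) and was -0.49 and -0.56 within the codes. Slc4a4, a sodium bicarbonate cotransporter, read -0.028 (95% interval -0.18 to 0.12), and Atp1b2, a sodium pump subunit of glia, read -0.11 (95% interval -0.22 to -0.0014, adjusted p = 0.152). Neither passed by any of their probe sets.

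**Figure D2:**
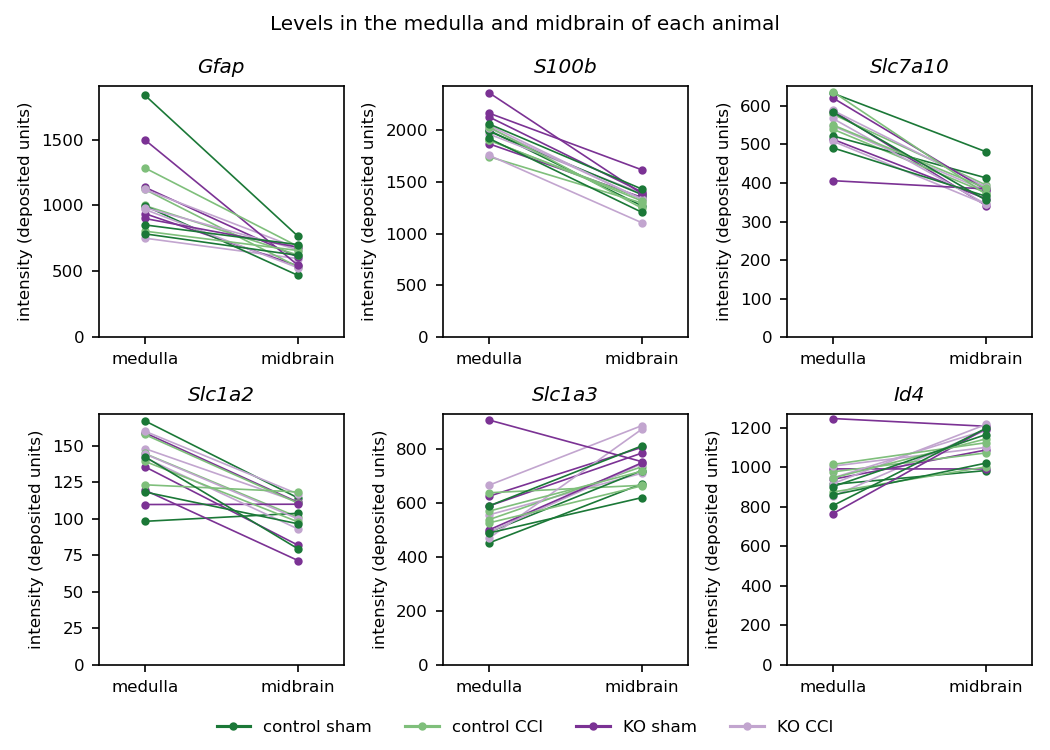
Deposited intensity of 6 astrocyte genes in the medulla and midbrain of each of 16 animals (vertical axes from 0), with a line joining the arrays of an animal and colours for the 4 animal groups. The lines of Gfap, S100b and Slc7a10 all go down toward midbrain. Those of Slc1a2 go down and those of Slc1a3 and Id4 go up in most animals, on this scale before normalization.

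Of the 7 genes of metabolism, Aldoc was lower and Ndrg2 and Entpd2 were higher in midbrain. Aldoc, the brain form of the glycolytic enzyme aldolase, is read by 2 probe sets. The brighter read 5557 to 6210.4 in medulla (median 5936) and 4776 to 5941 in midbrain (median 5260.0), 1.09-fold lower (log2 -0.13 ± 0.026 SE, adjusted p = 0.000681, limma). Within the array codes the brighter read -0.11 (adjusted p = 0.212) and -0.14 (adjusted p = 0.0995), past the threshold in neither. The dimmer read 584 to 774 in medulla (median 666) and 325 to 442 in midbrain (median 409), with no overlap between the regions, and was 1.67-fold lower (-0.74 ± 0.038, adjusted p = 1.23e-14). Both were lower in midbrain in all 16 animals, and the dimmer gave -0.76 in control sham, -0.66 in control CCI, -0.77 in KO sham and -0.75 in KO CCI. Arrays of the regions did not overlap for 2 of the 65 probe sets (3.08%), this one and the second of S100b, against 1.47% of all probe sets.

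Slc1a3 and Aldoc had the largest higher difference of a gene and the smallest adjusted p of a probe set, and both hold a STAT motif before a start site, so these promoters are printed. Aldoc has a second annotated promoter, not printed, with 0 matches. Each is the 250 bases before a gene's annotated start (RefSeq, GRCm38.p6), 5' to 3' on the gene's strand, with capitals at each match to TTCNNNGAA (a palindrome, so both strands are covered). The Aldoc window is chr11:78323948-78324197 on the plus strand and the Slc1a3 window is chr15:8710808-8711057 on the minus strand.
Aldoc: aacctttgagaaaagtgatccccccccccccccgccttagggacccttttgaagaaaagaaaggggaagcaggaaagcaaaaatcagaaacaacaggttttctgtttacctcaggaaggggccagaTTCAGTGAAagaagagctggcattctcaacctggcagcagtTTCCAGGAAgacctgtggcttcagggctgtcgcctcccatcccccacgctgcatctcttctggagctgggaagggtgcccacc
Slc1a3: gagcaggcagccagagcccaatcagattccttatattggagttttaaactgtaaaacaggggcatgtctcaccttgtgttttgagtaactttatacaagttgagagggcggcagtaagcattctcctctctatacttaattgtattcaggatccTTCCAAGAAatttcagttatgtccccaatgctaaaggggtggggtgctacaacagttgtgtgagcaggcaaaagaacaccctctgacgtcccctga
The motif occurs in 7.02% of 32851 promoters of this length, 2 or more times in 0.317%, and in 3 of the 36 promoters of the 29 astrocyte genes with an entry, the other being of Ntsr2. A match describes the letters of these windows only. The other motifs searched on both strands were the palindromic NFI motif (0 of 36 promoters, 0.0365% of all), the Sox core ACAAAG (2 of 36 promoters, 16.5% of all) and the E box CANNTG (21 of 36 promoters, 66.2% of all).

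Ndrg2, a cytoplasmic protein typical of mature astrocytes, had means of 2343 ± 115 in medulla and 2510.3 ± 187 in midbrain (SD, n = 16) and a difference of 0.12 ± 0.041 (adjusted p = 0.0313, limma). With median centring in place of quantile normalization it read 0.096 and did not pass (adjusted p = 0.0962). Entpd2, an enzyme that breaks down extracellular ATP, had means of 169.0 ± 19.2 and 189 ± 25.9 and a difference of 0.15 ± 0.053 (adjusted p = 0.0414, limma), a call that held in 15 of 32 fits that left out 1 array. Both genes were higher in midbrain in 14 of 16 animals, and within the lower and higher codes Ndrg2 read 0.17 and 0.073 and Entpd2 0.14 and 0.16, past the threshold in neither. The other 4 enzymes did not pass by their brightest probe set. Glul, glutamine synthetase, read -0.036 (95% interval -0.10 to 0.031). Aldh1l1, a folate enzyme widely used to mark astrocytes, read 0.094 (95% interval 0.017 to 0.17, adjusted p = 0.0735) and was higher in 14 of 16 animals. With the animal as a replicate block Aldh1l1 had an adjusted p of 0.0689, and with the animal as a random effect it passed (adjusted p = 0.0331). Its second, dim probe set read -0.10 and was lower in midbrain in 11 of 16 animals. Ppp1r3c, a regulator of glycogen, read -0.098 (95% interval -0.22 to 0.025). Dio2, which activates thyroid hormone, read -0.066 (95% interval -0.18 to 0.050), while its second probe set was lower in midbrain (-0.29 ± 0.059, adjusted p = 0.000515, limma). These 2 probe sets of Dio2 were about equally bright, with mean intensities of 159.5 and 160.3, and the first was taken for its higher mean log2 level.

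Among lipid carriers and secreted proteins, S100b was lower and Apoe and Fabp7 were higher in midbrain. S100b, a calcium-binding protein of astrocytes that oligodendrocyte lineage cells also make, read 1744 to 2363 in medulla (median 1994) and 1104 to 1616 in midbrain (median 1334). Every midbrain array was below every medulla array on the deposited scale, although the brightest probe set overlapped after normalization. It was 1.47-fold lower (log2 -0.56 ± 0.046 SE, adjusted p = 2.11e-10, limma), with -0.48 and -0.62 within the array codes, and its second probe set read -0.64 (adjusted p = 3.98e-10). Apoe, the main lipid carrier of the brain, had means of 3693 ± 158 and 4047 ± 269 (SD, n = 16) and was higher in midbrain in 15 of 16 animals (0.14 ± 0.031, adjusted p = 0.000919, limma). Fabp7, a fatty acid binding protein of radial glia and astrocytes, read 796 to 1147 in medulla (median 1025) and 905 to 1329.6 in midbrain (median 1145), higher in midbrain in all 16 animals (0.19 ± 0.058, adjusted p = 0.0165). Within the array codes Apoe read 0.14 in both and Fabp7 0.18 and 0.21, none past the threshold.

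Clu (clusterin), a secreted chaperone and lipid carrier, read 0.094 by its brightest probe set (adjusted p = 0.0652, limma), and its other 3 probe sets passed with 0.10 to 0.16. Sparc, a matrix protein that vessels also make, read 0.10 ± 0.054 (adjusted p = 0.199), and its second probe set passed with 0.10 ± 0.034 (adjusted p = 0.0350, limma). With the animal as a replicate block the brightest probe sets of Clu (adjusted p = 0.0167) and Sparc (adjusted p = 0.0116) passed too, and with the animal as a random effect Clu passed (adjusted p = 0.0203) and Sparc did not (adjusted p = 0.0843). Sparcl1, a matrix protein that promotes synapse formation, read -0.035 (95% interval -0.092 to 0.021).

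The metallothioneins bind zinc and copper, and Mt1 and Mt2 are induced by metals, glucocorticoids and injury. Mt1 had means of 3609 ± 283 in medulla and 3204 ± 264 in midbrain (SD, n = 16) and was lower in midbrain in 15 of 16 animals (log2 -0.17 ± 0.042 SE, adjusted p = 0.00338, limma), while its other, dim probe set read 0.043. Within the codes Mt1 read -0.16 (adjusted p = 0.254) and -0.18 (adjusted p = 0.0462). Mt2 read -0.11 ± 0.082 (95% interval -0.28 to 0.060, adjusted p = 0.406). The animal KO sham 2 was highest of its region in both, at 2176 in medulla and 2498 in midbrain against at most 1899 and 1734 elsewhere, and without its midbrain array Mt2 read -0.17 (adjusted p = 0.0330). Mt3, the neural member, read -0.20 ± 0.10 (adjusted p = 0.191) and passed with the animal as a replicate block (adjusted p = 0.0296) but not as a random effect (adjusted p = 0.0877).

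The 3 genes lie side by side on chromosome 8, with 6.47 kb between the starts of Mt1 and Mt2 and 20 kb between those of Mt2 and Mt3. Their promoters are printed with the matches in each window to the metal response element core TGCNCNC, in capitals on either strand. The windows, all on the plus strand of GRCm38.p6 (RefSeq), are chr8:94178839-94179088 for Mt1, chr8:94172368-94172617 for Mt2 and chr8:94152357-94152606 for Mt3.
Mt1: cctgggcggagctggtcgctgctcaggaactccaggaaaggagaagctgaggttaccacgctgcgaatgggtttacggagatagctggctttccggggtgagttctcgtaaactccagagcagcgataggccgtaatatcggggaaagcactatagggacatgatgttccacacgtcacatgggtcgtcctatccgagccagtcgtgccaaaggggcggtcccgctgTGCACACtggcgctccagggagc
Mt2: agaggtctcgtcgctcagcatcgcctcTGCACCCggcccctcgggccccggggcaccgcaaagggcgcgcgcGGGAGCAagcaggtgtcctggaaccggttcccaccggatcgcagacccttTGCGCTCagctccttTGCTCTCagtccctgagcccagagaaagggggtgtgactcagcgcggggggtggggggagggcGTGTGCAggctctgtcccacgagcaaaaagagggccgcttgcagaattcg
Mt3: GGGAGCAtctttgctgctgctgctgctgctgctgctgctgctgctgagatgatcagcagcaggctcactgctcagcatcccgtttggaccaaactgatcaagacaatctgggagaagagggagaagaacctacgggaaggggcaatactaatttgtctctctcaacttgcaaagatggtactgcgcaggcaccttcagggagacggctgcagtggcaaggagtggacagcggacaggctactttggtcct
Within these windows Mt2 holds 5 matches and Mt1 and Mt3 hold 1 each. The counts depend on where the annotated start places the window. Elements outside it, also those past the annotated start, were not counted. The core is short and occurs in 44.4% of 32851 promoters of this length, while 5 or more matches occur in 0.344%.

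Of the receptors, Cd44 and Fgfr3 were lower in midbrain. Cd44, a hyaluronan receptor of fibrous astrocytes that other cell types also carry, read 55.2 to 157 in medulla (median 102) and 49.8 to 108 in midbrain (median 71.1), 1.34-fold lower (log2 -0.42 ± 0.12 SE, adjusted p = 0.00780, limma). It was lower in 14 of 16 animals, and it read -0.60 (adjusted p = 0.0138) within the lower and -0.28 (adjusted p = 0.227) within the higher code. Its second probe set, with means of 24.7 and 22.7, read -0.063. Fgfr3, a growth factor receptor of astrocytes and their precursors, had means of 630.1 ± 67.3 and 559.7 ± 61.3 (SD, n = 16) and a difference of -0.17 ± 0.054 (adjusted p = 0.0232, limma). Without the arrays KO sham midbrain 2 and 4 Fgfr3 read -0.15 (adjusted p = 0.0664), and -0.12 and -0.18 within the codes, past the threshold in neither. Ntsr2, a neurotensin receptor, read 0.015 (95% interval -0.054 to 0.085).

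Of the transcription regulators, Id4 was higher in midbrain. Id4, an inhibitor of basic helix-loop-helix factors, read 765 to 1247 in medulla (median 928) and 984 to 1217 in midbrain (median 1134), higher in 15 of 16 animals (log2 0.26 ± 0.048 SE, adjusted p = 0.000160, limma). Its 3 probe sets gave 0.17 to 0.26 and all passed, and within the codes the brightest read 0.24 and 0.30 (adjusted p = 0.0549 in the higher code). Id3, of the same family, read -0.087 (95% interval -0.24 to 0.065), and Sox9, a factor needed to make astrocytes, read 0.021 (95% interval -0.10 to 0.14).

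Probe sets of a gene did not always give the same call. Of the 20 genes with several probe sets, 6 had probe sets on both sides of the threshold and 6 had differences of both signs, and in 0 of them did 1 probe set pass as higher and another as lower. Besides Gja1 and Mt1, those of both signs were Vim (-0.062 to 0.0040), Slc4a4 (-0.25 to 0.15), Aldh1l1 (-0.10 and 0.094) and Sox9 (-0.032 and 0.021). The array KO sham midbrain 2 lay more than 0.5 on the log2 scale below every other midbrain array for 6 of the 65 probe sets (9.23%), against 3.02% of all probe sets, none of them the brightest of its gene. Gja1 is the largest case: this probe set read 42.2 there and 274 to 508 in the other midbrain arrays, while the other 5 probe sets of the gene showed no such gap. The others were of Atp1b2 (134 against 475 to 809), Ppp1r3c (80.9 against 188 to 409), Fgfr3 (26.6 against 79.1 to 138), Slc1a3 (188 against 361 to 523) and Aqp4 (704 against 1493 to 2415). The part of this array's raised 3' to 5' ratio in those readings was not tested.

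Other lists were counted in the same comparison, a gene by its brightest probe set, in which 24.3% of all 12393 genes passed. That share includes dim genes. Among probe sets at least as bright as the dimmest brightest probe set of the astrocyte genes, 31.5% passed. Of 33 further astrocyte genes, 6 were higher and 9 lower in midbrain (45.5% in all, limma). Mfge8, a secreted bridging protein for phagocytosis, had means of 307 ± 53.7 in medulla and 645 ± 91.2 in midbrain (log2 1.04 ± 0.082, adjusted p = 1.12e-10), and Agt, angiotensinogen, was higher by 0.40. Kcnj10, the astrocyte potassium channel Kir4.1, was lower by the fit (-0.45 ± 0.046, adjusted p = 1.56e-08), as were Tlr3 (-0.72), Pla2g7 (-0.41) and Fgfr2 (-0.39). Of 32 reactive astrocyte genes 28.1% passed, near the share of all genes, with 3 higher and 6 lower in midbrain.

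Markers of some other cells passed more often than the 24.3% of all genes, dim genes included, a difference that was not tested. Of 8 oligodendrocyte markers 6 were lower in midbrain and 0 higher, with a median of -0.31, and their summed level was 22882 to 26326 in medulla and 20269 to 22805 in midbrain. Of 10 neuron markers 5 were lower, led by the neurofilaments Nefm (-0.52) and Nefl (-0.45), and 1 higher. Of 8 choroid plexus markers 7 were lower and 1, Otx2, higher, and their sum was 1046 to 11275 in medulla and 404 to 5463 in midbrain. Of 9 cerebellar markers 5 were lower (55.6%). Of 9 endothelial markers 2 were lower (22.2%) and of 4 ependymal markers 1 (25%), shares near that of all genes, with 0 higher in each of these lists. Of 10 meningeal markers 2 were higher and 2 lower, and of 12 glucocorticoid response genes 2 were higher and 3 lower. None of 10 microglia markers and of 2 red blood cell genes passed (0 and 1 at an unadjusted p under 0.05, limma). The defining markers of oligodendrocytes and choroid plexus were well above 0 in medulla (Mag 1877 and Ttr 7643 on average). The part of these cell types in the differences of S100b, Cd44, Apoe and other members was not tested.

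The region differences were not shown to depend on genotype or injury. In the genotype by region interaction 0 of 65 probe sets passed (0% of all probe sets) and 0 had an unadjusted p under 0.05 (limma), against 3.8% of all. In the CCI by region interaction in control mice 0 of 65 passed (0% of all) and 0 had an unadjusted p under 0.05, against 1.8% of all. For Gfap the genotype by region interaction was -0.019 ± 0.20 (SE) and the CCI by region interaction in control mice 0.018 ± 0.28.

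Genotype was compared within each region, and no astrocyte probe set passed. In medulla 0 of 65 passed for genotype averaged over operation (0.053% of all probe sets, 0.0177% higher and 0.0354% lower), in sham mice (0.0133%) and in CCI mice (0.00442%). At an unadjusted p under 0.05 these comparisons held 1, 3 and 1 astrocyte probe sets (limma), against 3.36%, 3.81% and 2.44% of all. Without KO sham medulla 3 they held 3, 2 and 2, against 4.14%, 3.66% and 3.27% of all. In midbrain 0 of 65 passed averaged over operation (0.0309% of all), in sham mice (0.0133%) and in CCI mice (0.00884%), with 4, 8 and 4 at an unadjusted p under 0.05, against 7.49%, 8.47% and 4.96% of all. The largest of these was 8 of 65 in sham midbrain (12.3%). Without KO sham midbrain 2 these midbrain comparisons held 7, 6 and 6, against 9.75%, 7.83% and 6.29% of all. Without KO sham midbrain 2 and 4 they held 12, 5 and 6, against 15.5%, 10.5% and 8.66% of all. With the operations averaged, all 33 brightest probe sets had a 95% interval within 0.5 on the log2 scale in both regions.

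Aldoc had the smallest p of the astrocyte genes for genotype in midbrain. Its brighter probe set read 5940.9, 5727, 5475.7 and 5256.5 in control sham, 5346.2, 5769.5, 5321.3 and 5694.2 in control CCI, 5135, 4776.3, 5044 and 4965.8 in KO sham, and 5263.4, 5249.7, 5168.8 and 5181.2 in KO CCI midbrain. Of the 8 control arrays only control sham 4 lay below the highest KO array. The difference, KO minus control, was -0.12 ± 0.041 (SE, 95% interval -0.21 to -0.035) with an unadjusted p of 0.00934 and an adjusted p of 0.57, and the dimmer probe set read -0.16 (adjusted p = 0.583, limma). Within the lower and the higher array code the brighter probe set read -0.12 in both. In medulla the dimmer probe set read -0.11 averaged over operation (adjusted p = 1). In CCI medulla alone the brighter read -0.0083 ± 0.061 and the dimmer -0.023 ± 0.077 (SE).

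Slc1a3 and Dio2 stood next in the order of p for genotype in midbrain. Slc1a3 read 671, 721, 812 and 620.4 in control sham and 806.8, 786, 749.6 and 753.5 in KO sham midbrain, with 735, 666, 719 and 664 in control CCI and 887, 711, 874 and 746 in KO CCI midbrain. By this brightest probe set the KO and control ranges overlapped in both operations, and the difference was 0.17 ± 0.066 (SE, adjusted p = 0.604, limma). Dio2 read 0.21 ± 0.085 (adjusted p = 0.610). Arrays of the genotypes did not overlap after normalization for 3 of the 65 probe sets in sham midbrain, 4.62% against 3.43% of all probe sets. These were another probe set of Slc1a3 and the brightest of Aldoc and Sparcl1. In CCI midbrain the arrays did not overlap for 3 (Entpd2, Apoe and a dimmer probe set of Gja1, 4.62% against 5.12%). In medulla the arrays did not overlap for 1 in sham mice (the dimmer of Aldoc, 1.54% against 1.65%). In CCI medulla they did not overlap for 2, dimmer probe sets of Slc1a3 and Dio2 (3.08% against 2.11%). The brightest of Slc1a3 read -0.062 there. With the operations averaged 0 of 65 did not overlap, against 0.0972% of all in medulla and 0.11% in midbrain.

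The injury was compared with the sham operation within each region and genotype, which asks whether astrocyte genes respond in these brain regions to a lesion of a peripheral nerve. No astrocyte probe set passed: 0 of 65 in medulla and 0 of 65 in midbrain in control mice, in KO mice and averaged over genotype, as for all probe sets (0% in each). At an unadjusted p under 0.05 (limma) there were 0, 2 and 4 in medulla against 2.8%, 4.24% and 4.46% of all probe sets, and 0, 8 and 4 in midbrain against 3%, 8.23% and 4.74% of all. The 8 in KO midbrain fell to 1 of 65 without KO sham midbrain 2, against 6.18% of all probe sets. Without KO sham medulla 3, the 2 in KO medulla fell to 1 (3.98% of all) and the 4 averaged over genotype in medulla to 2 (5.38% of all). The genotype by CCI interaction held 0 of 65 past the threshold in medulla and 0 of 65 in midbrain (0% of all in each), with 0 and 3 at an unadjusted p under 0.05, against 2.67% and 5.48% of all. All 33 brightest probe sets differed by less than 0.5 on the log2 scale in each of these comparisons.

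Gfap and Vim, the markers of reactive astrocytes, did not pass. In control medulla Gfap read 1838, 998.1, 852.3 and 784.6 after the sham operation and 999.5, 1122, 804.9 and 1285.3 after CCI. In control midbrain it read 765.7, 468.9, 702.4 and 620.6 after sham and 623.1, 533.1, 657.7 and 688.8 after CCI. The ranges overlapped in both regions. Averaged over genotype the difference of Gfap, CCI minus sham, was -0.14 ± 0.17 (SE) in medulla and 0.0040 ± 0.099 in midbrain, and that of Vim was -0.14 ± 0.14 and -0.025 ± 0.097 (adjusted p of 0.972 or more in each, limma). Among the 33 further astrocyte genes and the 32 reactive astrocyte genes, 0 passed in any comparison of genotype or operation (limma). At an unadjusted p under 0.05 each comparison of CCI with sham held 0 to 2 and 0 to 3 of them (limma). The same comparisons held 2.8% to 8.23% of all probe sets. Part of the reactive list was dim, so its count of 0 says little about those genes. Steap4, S1pr3, Timp1, Cxcl10, Osmr and Ptx3 read above 50 in 0 of 32 arrays, while Hspb1, S100a10, Serpina3n, Stat3 and others did so in all 32.

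For CCI averaged over genotype, Cd44 in midbrain and Mt1 in medulla had the smallest p of the brightest probe sets. Cd44 in midbrain read 60.5, 71.5, 78 and 56.9 in control sham, 99.7, 69.2, 104.2 and 84.7 in control CCI, 70.6, 74.9, 50.9 and 49.8 in KO sham, and 107.6, 85.5, 55.2 and 66.4 in KO CCI. CCI arrays overlapped sham arrays in both genotypes, and the difference was 0.31 ± 0.13 (SE, 95% interval 0.036 to 0.58, adjusted p = 0.954, limma), 0.27 within the lower and 0.32 within the higher code. Its dim second probe set did not overlap between KO CCI (30.9, 30.4, 30.2 and 35.9) and KO sham midbrain (19.2, 16.4, 19.8 and 12.9), with a difference of 0.51 ± 0.14 (adjusted p = 0.601). In control midbrain the same probe set read 27.1, 26.4, 9.8 and 17.5 after CCI and 18.5, 25.2, 27.3 and 16.3 after sham.

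Mt1 in medulla read 4363.6, 3521.9, 3672.9 and 3794.2 in control sham, 3372.3, 3683.9, 3437.1 and 3510.5 in control CCI, 3489.8, 3830.9, 3750.9 and 3922.1 in KO sham, and 3451.2, 3238.1, 3273.9 and 3430.2 in KO CCI. In KO mice all 4 CCI arrays were below all 4 sham arrays on the deposited scale, though not after normalization. The difference averaged over genotype was -0.15 ± 0.054 (SE, 95% interval -0.26 to -0.036, adjusted p = 0.972, limma), with -0.076 and -0.15 within the lower and higher code. After normalization, arrays of the operations did not overlap for 1 probe set in control medulla (Ndrg2, 1.54% against 2.05% of all), 1 in KO medulla (Dio2, 1.54% against 1.81%), 1 in control midbrain (Sparcl1, 1.54% against 3.08%) and 2 in KO midbrain (Gja1 and Cd44, 3.08% against 2.75%). Those of Dio2, Gja1 and Cd44 were not the brightest of their gene.

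**Figure D3:**
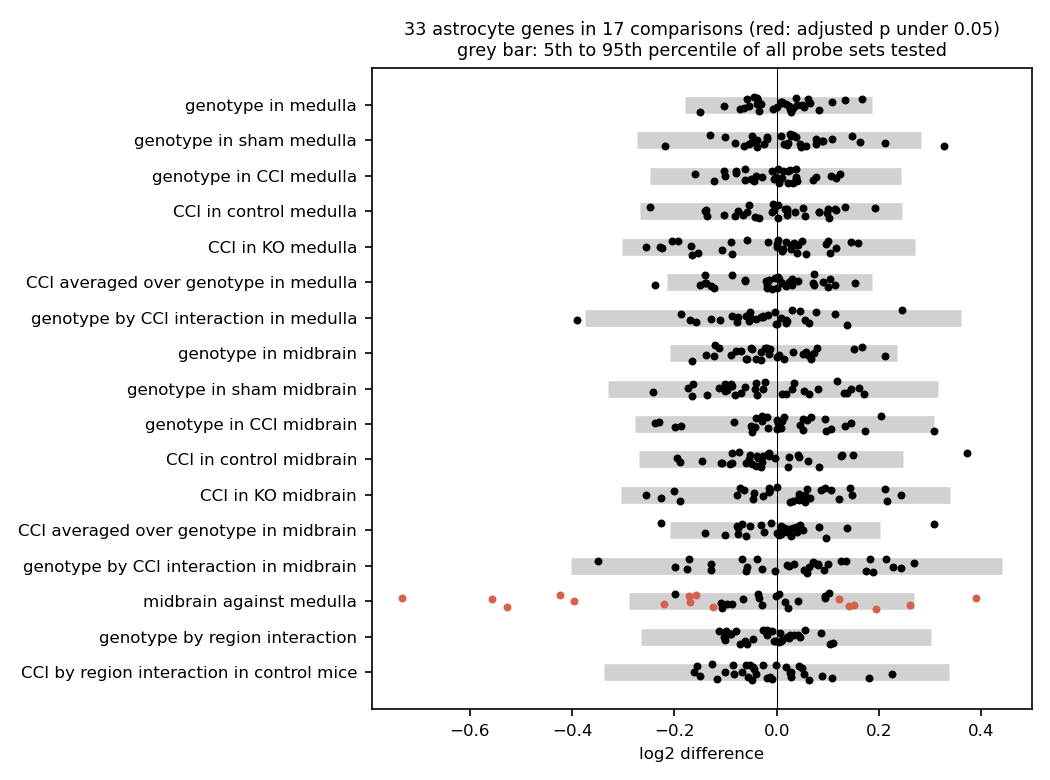
Log2 differences of the brightest probe sets of 33 astrocyte genes (dots) in each of 17 comparisons (rows), red where the adjusted p was under 0.05. Grey bars run from the 5th to the 95th percentile of all 22626 probe sets, and red dots appear in midbrain against medulla alone.

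The 95% interval of the brightest probe set lay within 0.5 on the log2 scale for 33 of 33 genes for genotype in either region, for 31 in medulla and 32 in midbrain for CCI averaged over genotype, and for 24 and 21 for the interactions of genotype and CCI.

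Levels were also compared between the regions of an animal, as deviations from the group means in each region over the 16 animals. Of the 33 brightest probe sets 3 passed an adjusted p under 0.05 over all probe sets, against 4.18% of all probe sets. They were Fabp7 (Pearson r = 0.88, permutation p = 0.00302, Spearman rho = 0.85, permutation p = 0.00462, adjusted p = 0.00937), Sparc (r = 0.86, permutation p = 0.00146, rho = 0.77, permutation p = 0.00127, adjusted p = 0.0128) and Ndrg2 (r = 0.78, permutation p = 0.0532, rho = 0.51, permutation p = 0.136, adjusted p = 0.0455). Without the 2 animals farthest from the median in medulla, r was 0.81, 0.70 and 0.64. When animals were paired by title number 0 of 33 passed, with r of 0.29, 0.80 and 0.35. Over 14 animals, without KO sham 2 and KO sham 3, whose arrays stood apart, r was 0.72 for Fabp7 (adjusted p = 0.127), 0.85 for Sparc (adjusted p = 0.0350) and 0.43 for Ndrg2 (adjusted p = 0.476). In these 14 animals, an alternative chosen after seeing the data, 3 of 33 passed, which were Sparc, Mt3 (r = 0.90, adjusted p = 0.0143) and Slc4a4 (r = 0.85, adjusted p = 0.0349). With deviations taken within group and array code 0 of 33 passed, with r of 0.87 for Fabp7, 0.26 for Sparc and 0.86 for Ndrg2.

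Fabp7 deviations ran from -0.25 to 0.24 in medulla and from -0.27 to 0.25 in midbrain. Sparc was lowest in control sham 1 in both regions, at 3932 in medulla and 4159 in midbrain, against 4433 to 6147 and 4990 to 6101 in the others. For Mt2, whose extreme animal was KO sham 2, r was 0.75 (permutation p = 0.00746, adjusted p = 0.0602) and fell to 0.45 without 2 animals. For Gfap, S100b and Slc1a3, which differed between regions, r was 0.12, 0.35 and -0.0075, with permutation p of 0.761, 0.309 and 0.979. An r over 0.5 was reached by 13 of 33 brightest probe sets (39.4%), against 23.7% of all probe sets and 35.2% of those at least as bright as the dimmest of the 33.

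**Figure D4:**
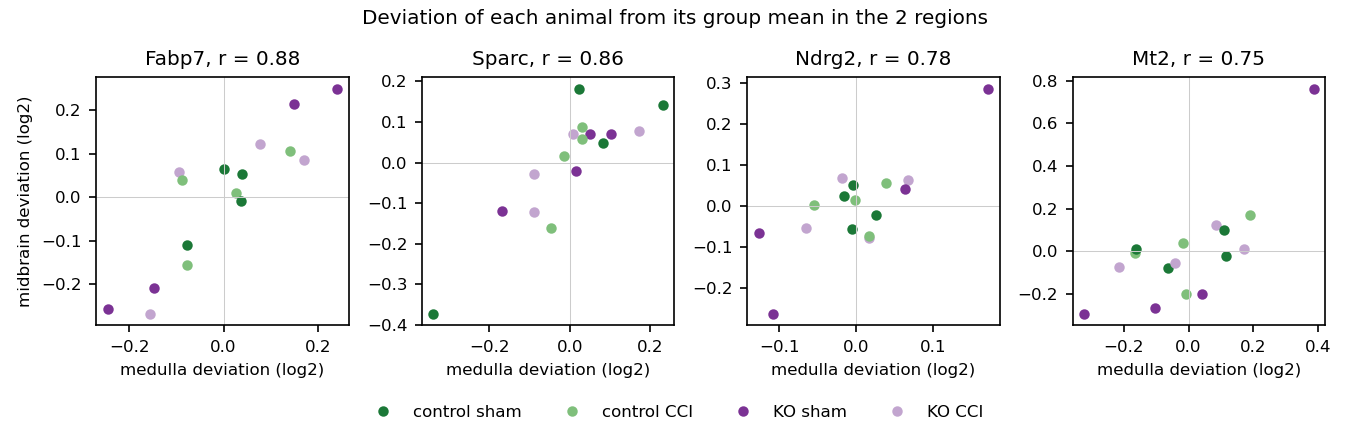
Deviation of each of 16 animals from its group mean in medulla (horizontal) and midbrain (vertical), in log2 units, for Fabp7, Sparc, Ndrg2 and Mt2, with colours for the animal groups. Fabp7 points run from lower left to upper right, while control sham 1 lies apart at the lower left for Sparc, KO sham 2 at the upper right for Ndrg2 and Mt2, and KO sham 3 at the bottom for Ndrg2.

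Genes of the same role were compared across animals within a region, again as deviations from group means, in 12 relations. None passed after adjustment over the 12 (lowest adjusted permutation p = 0.156). Mt1 and Mt2 gave r = 0.75 in midbrain (permutation p = 0.036, rho = 0.66, permutation p = 0.0147), which was 0.33 without the 2 animals farthest from the median. Gja1 and Gjb6 gave r = -0.65 in midbrain (permutation p = 0.0131, rho = -0.65, permutation p = 0.0134) and -0.53 without 2 animals, while in medulla they gave -0.32 (permutation p = 0.334, rho = -0.091, permutation p = 0.767).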

How the data were processed

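The arrays were made from total RNA extracted with TRIzol, 4 ug of which was turned into biotinylated cRNA, per the labels' protocols. The deposited values are intensities on a linear scale, 1 per probe set and array, deposited by the authors after background subtraction and scaling between arrays, as values under 0 and near-equal array medians show. The software and scaling method are not given in the sources used here. Probes were named from the platform annotation in GEO, and promoters and gene positions came from RefSeq (GRCm38.p6).

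Values under 0 were set to 0, 16 was added, the log2 was taken and the arrays were quantile normalized (R 4.3.3, limma 3.58.1). The 64 control probe sets were left out, with no filter on brightness. Group means were fitted with lmFit and eBayes, to the 16 arrays of a region or to all 32 for comparisons of regions, and p-values (both tails) were adjusted by Benjamini and Hochberg over the 22626 probe sets of a comparison. The threshold was an adjusted p of 0.05. Arrays of a group are separate animals by the design text. Medulla and midbrain arrays were assigned to an animal by consecutive array numbers, and their deviations correlated at 0.171 on average. KO sham 3 and 4 are crossed between titles and array numbers, and animals carry the number of their medulla array. Correlation p-values came from 100000 permutations of animals within groups. A gene is described by its probe set of highest mean normalized log2 level, with the others given where direction or call differ in midbrain against medulla. The fits were tested on simulated data with independent arrays, without the pairing of regions in an animal. For genotype in medulla, 14% of true log2 changes of 0.25, 64% of 0.5 and 94% of 1 passed. For midbrain against medulla the shares were 50%, 90% and 100%. Members, lists and rules were chosen with earlier results of these data known. The number of arrays limits the precision.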

Additional observations from a re-analysis of the deposited data

Results flagged for a closer look

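In 5 of the 128 combinations of a brightest probe set and group that were examined for one array far from the other 3, a level stood apart by Dixon's rule at 95%, which chance alone does in about 5% of groups. Aqp4 read 1696 in control sham midbrain 1 and 1896 to 1919 in the others of its group. Gjb6 read 995 in KO CCI medulla 1 against 822 to 843. Ndrg2 read 2151 in control CCI medulla 3 against 2355 to 2397. Apoe read 3678 in control sham midbrain 4 against 4238 to 4317. Fabp7 read 951 in control sham medulla 1 against 1031 to 1042.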

How the results depend on the processing

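The count for midbrain against medulla, 29 of 65, was 25 to 30 over the 32 fits that left out 1 array. Over 17 other settings it was 10 to 37. It was over 1.5 times lower only in the fits to fewer arrays, 10 (3 higher, 7 lower) within the lower and 13 (3 higher, 10 lower) within the higher array code. At an unadjusted p under 0.05 (limma) these fits held 18 and 28 of 65, against 21.6% and 23.4% of all probe sets. The region counts past the threshold are given here without the share of all probe sets under the same setting. A changed count is therefore no result about the astrocyte genes in particular. The count was 37 with the animal as a replicate block and 37 with the title number as a block. Beyond Clu, Sparc and Mt3, the animal as a fixed block changed no call of a brightest probe set, and as a random effect (35 of 65) only Clu and Aldh1l1 gained theirs. With median centring or on the authors' scale it was 25 (10 higher, 15 lower), and Entpd2 and Ndrg2 lost their call. No brightest probe set that passed changed its sign under any setting. Gfap, S100b and Slc7a10 kept their call in all 17 settings and 32 omissions. The counts of 0 for genotype, CCI and their interactions were 0 under every setting and omission run. The count of 3 for the correlation between the regions of an animal was 2 with median centring, 0 when animals were paired by title number and 0 for deviations from means of group and array code. Over all probe sets 793, 297 and 27 passed under these settings, against 944 in the main one. Without the animals KO sham 2 and KO sham 3 the count was 3 (841 over all probe sets), of which only Sparc had passed with all 16.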

Other observations

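The second probe set of Glul, glutamine synthetase, ranged from 1016.5 to 1834.3 in KO medulla and from 930.8 to 1147.5 in control medulla. Its medulla values were 1132.3, 930.8, 1060.6 and 1071.1 in control sham, 1031.1, 1011.3, 1063.8 and 1147.5 in control CCI, 1806.9, 1206.4, 1067.9 and 1016.5 in KO sham, and 1834.3, 1753.8, 1336.2 and 1036.7 in KO CCI. In midbrain KO CCI read 1798.4, 1346.3, 1057.1 and 930.4, KO sham 1193.4, 779.5, 819.7 and 1114.3, and the 8 control arrays 814 to 1084. The KO animals with the highest medulla values, KO CCI 1, KO sham 1 and KO CCI 2, were also the highest of their group in midbrain or next to it. All of them carry the lower array code. The KO medulla arrays of the higher code read 1336.2 and 1036.7 after CCI and 1067.9 and 1016.5 after sham. The brighter probe set of Glul read 3527 to 3706 in the medulla of KO CCI 1, KO sham 1 and KO CCI 2 and 3534 to 3709 in control medulla. The genotype difference of the second probe set in medulla was 0.34 ± 0.13 (SE, adjusted p = 1, limma).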
